A study of Danio rerio with 12 samples.

Results

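The zebrafish gene *atp6ap2* (ENSDARG00000008735) encodes an accessory protein of the vacuolar proton pump, the V-ATPase. It is 1 of the 32057 genes in the brain count table described here, and 1 of the 16021 genes that passed the filter on low counts. The gene was chosen by its identifier, with its difference between *psen2* mutant and wild type brains already known. Its values in that comparison are therefore given as a description, without a test.

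The samples were whole brains of 12 female zebrafish aged 6 months, all from one F3 family raised in one tank. The groups were 4 wild type fish (WT, *psen2* +/+), 4 heterozygous fish (Het, *psen2* S4Ter/+) and 4 homozygous fish (Hom, *psen2* S4Ter/S4Ter). S4Ter is a frameshift allele of *psen2* with an early stop codon, derived from a single F1 founder, and no group carried any other engineered allele or received a treatment. The paper does not regard S4Ter as a null allele. It found no evidence that the mutant transcript is destabilised, and it proposes that later start codons give truncated Psen2 proteins. RNA depleted of ribosomal RNA was sequenced and counted per gene, with 1 library per fish and totals between 11878943 and 17026801 counts. Each fish is an individual brain, but the fish are siblings, so the spread between them is that within one family.

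The V-ATPase uses ATP to move protons into lysosomes, endosomes and synaptic vesicles. Its V1 domain hydrolyses ATP in the cytoplasm, and its V0 domain carries protons across the membrane. Accessory proteins, the ATP6AP1 family and ATP6AP2, are attached to V0. ATP6AP2 is also known as the (pro)renin receptor, because it binds renin and its precursor in mammals, and it has been described as an adaptor between the pump and Wnt receptors in frogs and flies. Presenilins are the catalytic subunits of γ-secretase, and lysosomal acidification has been tied to presenilin function in mammalian cells.

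Some features of the libraries touch every comparison below. Transcripts of the targeted gene, *psen2*, did not separate the genotypes, at 20.5 ± 2.02, 20.0 ± 2.30 and 19.1 ± 2.03 CPM in WT, Het and Hom (SD, n = 4 each; CPM, counts scaled by library total and TMM factor). Mutant minus WT for *psen2* was a log2 fold change (logFC) of -0.07 ± 0.11 (SE, edgeR's quasi-likelihood test, FDR = 0.629), and this count does not distinguish the alleles. The 2 mitochondrial rRNA genes took between 17.9% and 26.4% of all counts in WT fish, between 31.3% and 35.2% in Het fish and between 31.4% and 35.5% in Hom fish. They were left out of the fit, and their share does not overlap between WT and mutant fish. An effect of this share on any gene and an effect of genotype cannot be told apart in this design. The TMM scaling factor was 0.841 in Het fish 84 and between 0.981 and 1.04 in the other 11 fish. Some values below are therefore also given without fish 84, and others may change without it too.

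The position of *atp6ap2* bears on how its counts can be read. It lies on the minus strand of chromosome 22 at 11123487 to 11137268 (GRCz11), on another chromosome than *psen2*, which is on chromosome 1. The gene spans 13782 bp, and its 29 exon records merge into 10 exons with 2175 bp in all. The first merged exon has 682 bp and the last 639 bp, and counts were not split by exon or isoform. No other annotated gene overlaps it on either strand.

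*atp6ap2* was at a higher level in every mutant brain than in every WT brain. Its raw counts in WT fish were 531 in fish 79, 640 in fish 86, 763 in fish 88 and 631 in fish 95. In Het fish they were 1038, 1196, 1226 and 1070 in fish 80, 81, 84 and 89. In Hom fish they were 885, 882, 926 and 1130 in fish 78, 82, 83 and 85. The lowest mutant count, 882, lay above the highest WT count, 763, before any scaling.

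After TMM scaling the 4 WT fish had 54.1, 49.6, 66.5 and 54.5 CPM, in the same order of fish. The Het fish had 96.4, 110.8, 135.2 and 95.3 CPM. The Hom fish had 86.1, 84.2, 89.5 and 98.1 CPM. WT and mutant fish did not overlap, whereas Het and Hom did, since the highest Hom fish lay above the lowest Het fish. The means were 56.2 ± 7.21 CPM in WT, 109.4 ± 18.6 in Het and 89.5 ± 6.16 in Hom (SD, n = 4 each), giving the order WT, Hom, Het. Counting error alone was smaller than the differences between WT and mutant fish. In CPM of tested genes before TMM scaling, with Wilson 95% intervals, WT fish 86 ran from 45.4 to 53.0 and Het fish 84 from 107.5 to 120.3. The highest WT fish, 88, ran from 63.7 to 73.4 and the lowest mutant, Hom fish 78, from 81.6 to 93.1. Intervals of Het and Hom fish could overlap, as in Het fish 80 (92.4 to 104.4) and Hom fish 85 (94.7 to 106.4).

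**Figure D1:**
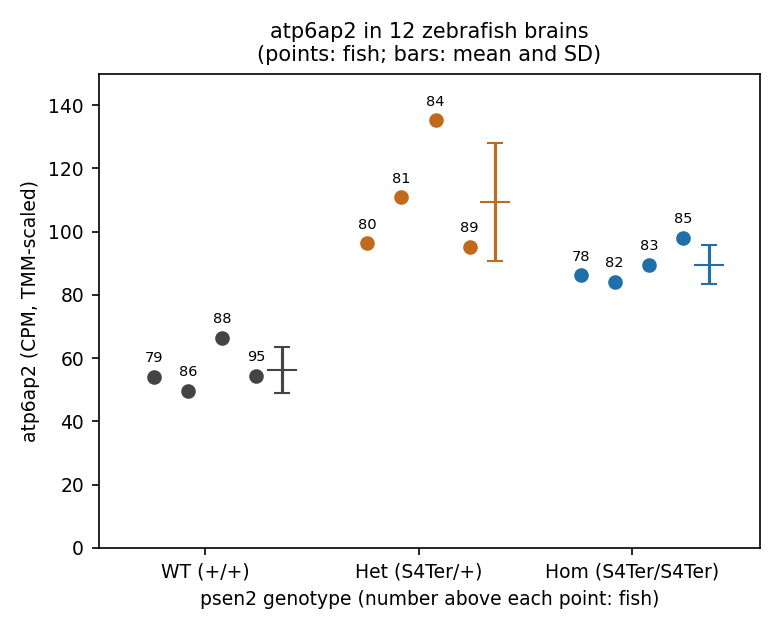
Level of *atp6ap2* (CPM, TMM-scaled) in each of 12 brains by *psen2* genotype, with fish numbers above the points and the mean and SD of 4 fish beside them. The 4 WT fish lie between 49.6 and 66.5 CPM and the 8 mutant fish between 84.2 and 135.2 CPM, with Het fish 84 the highest.

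The fitted difference between the mean of both mutant genotypes and WT was a logFC of 0.82 ± 0.11 (SE), or 1.76-fold. Het minus WT was 0.96 ± 0.13 (SE, 1.95-fold) and Hom minus WT was 0.67 ± 0.13 (SE, 1.59-fold), 2 values that share the WT fish. Without Het fish 84 the value for both mutant genotypes was 0.76 ± 0.09 (SE), and over the 12 fits that left out 1 fish each it ran from 0.76 to 0.91. In these fits Het minus WT ran from 0.85 to 1.05 and Hom minus WT from 0.62 to 0.76. Of the tested genes, 4.77% had a larger logFC, which placed *atp6ap2* at rank 766 of 16021 from the top. All 8 mutant fish lay above all 4 WT fish in 1227 tested genes (7.66%), *atp6ap2* among them. In whole brain RNA, more cells that express the gene and more transcript per cell cannot be told apart.

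Hom minus Het is a separate contrast from the mutant minus WT difference known when the gene was chosen. Earlier results of these data were known, so the p-values below carry that limit. *atp6ap2* was lower in Hom than in Het by a logFC of -0.29 ± 0.12 (SE), a fold of 0.818 with a 95% interval from 0.679 to 0.986. It did not pass the test across all genes (edgeR's quasi-likelihood test, unadjusted p = 0.0369, FDR = 0.989). The exact two-sided permutation test of its log2 CPM over the 8 mutant fish gave p = 0.0857, where the smallest p that 4 fish against 4 can give is 0.0286. Without Het fish 84 the difference was -0.18 ± 0.11 (SE, unadjusted p = 0.136 in edgeR's fit). The FDR for *atp6ap2* lay between 0.783 and 1.0 over all the alternatives tried. In this comparison 0 of 16021 genes (0%) passed an FDR of 0.05 in edgeR's quasi-likelihood test, and 607 (3.79%) had an unadjusted p under 0.05. DESeq2 called 9 genes and edgeR's likelihood-ratio test 9, neither of them including *atp6ap2*.

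Among all tested genes, *atp6ap2* was well expressed when levels were compared per length. Its mean level was 25.8 FPKM in WT, 50.3 in Het and 41.1 in Hom (CPM divided by the exon length in kb). The median tested gene had 6.84, 7.07 and 7.00 FPKM in these genotypes. In WT 85.3% of tested genes had a lower FPKM than *atp6ap2*, in Het 94.1% and in Hom 92.6%. Its spread within genotypes was near that of genes at its level, with a biological coefficient of variation of 13.4% against a trend of 15.9%. The SD on the log2 CPM scale was 0.18 over the genotypes, with 0.178 in WT, 0.235 in Het and 0.097 in Hom.

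The other V-ATPase genes were examined next, since ATP6AP2 works as part of that complex. The annotation gave 28 of them by symbol, and 27 passed the filter. The gene left out, *atp6v1c2*, had at most 2 counts in any fish. In mutant brains 12 of the 27 rose, 0 fell and 15 did not pass an FDR of 0.05 in edgeR's quasi-likelihood test. Over all tested genes 16.8% rose and 17.4% fell, 34.1% in all. In 24 of the 27 the fitted value was above 0, against 51.9% of all tested genes. Their median logFC was 0.28, beside 0.02 for all tested genes, and their values ran from -0.27 to 0.67. All of them lay below the 0.82 of *atp6ap2*. The study's stricter criteria were a Bonferroni-adjusted p under 0.01, or an FDR under 0.01 with a logFC beyond 1. The study applied them to a likelihood-ratio test on counts corrected for GC content and length. In the quasi-likelihood fit here 0 of the 27 passed them, where 1.52% of all tested genes were higher and 1.00% lower.

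Of the 12 tested V1 genes, 8 rose, beside 16.8% of all tested genes. *atp6v1h*, the regulatory H subunit, rose most, by 0.67 ± 0.14 (SE, FDR = 0.00427). It had 58.9, 52.4, 87.2 and 71.1 CPM in WT fish 79, 86, 88 and 95, and the 8 mutant fish lay between 87.4 and 141.0 CPM. The groups did not overlap, but WT fish 88 came close to Hom fish 78. *atp6v1b2*, a B subunit of the ATP-hydrolysing head, rose by 0.61 ± 0.12 (SE, FDR = 0.00262), with means of 148.3 ± 32.0 (WT), 236.1 ± 10.6 (Het) and 216.1 ± 19.5 CPM (Hom; SD, n = 4 each). A second B subunit gene, annotated ATP6V1B2 (ENSDARG00000013443, chromosome 17), rose by 0.38. *atp6v1ab*, an A subunit that binds and splits ATP, rose by 0.38, whereas its paralog *atp6v1aa* had a logFC of 0.28 and an FDR of 0.0718.

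In the stalks of V1, *atp6v1f* rose by 0.52, *atp6v1e1b* by 0.44, *atp6v1c1b* by 0.39 and *atp6v1g1* by 0.38. Their paralogs *atp6v1e1a* and *atp6v1c1a* had logFC values of 0.21 and 0.08 and did not pass, nor did *atp6v1d* at 0.13. *atp6v1c1b* was the most even of them, with 46.8 ± 2.67 CPM in WT, 62.9 ± 5.06 in Het and 60.0 ± 3.58 in Hom (SD, n = 4 each), without overlap between WT and mutant fish. Genes of one subunit pair that differ in their call were not tested against each other.

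Of the 11 V0 genes, 4 rose, beside 16.8% of all tested genes. *atp6v0d1*, which joins the proton-carrying ring to the central stalk, rose by 0.64 ± 0.13 (SE, FDR = 0.00277). It had 89.1, 73.4, 119.8 and 117.1 CPM in WT fish 79, 86, 88 and 95, and the 8 mutant fish lay between 141.3 and 184.4 CPM. The ring subunits *atp6v0b* and *atp6v0cb* rose by 0.58 and 0.55, whereas the second c subunit gene, *atp6v0ca*, had a logFC of 0.24 and an FDR of 0.235. Among the genes of the large a subunit, *atp6v0a2b* rose by 0.39. *atp6v0a1a* and *atp6v0a1b* stood at 0.12 and 0.07, *atp6v0a2a* at 0.25, *tcirg1b* at 0.38 and *tcirg1a* at -0.21, all short of the threshold. *atp6v0a1b* was the most abundant of these, with 249.1 ± 16.5 CPM in WT and 268.1 ± 12.6 and 254.0 ± 11.7 in Het and Hom (SD, n = 4 each). The low gene *atp6v0e1*, at 2.86 ± 0.715 CPM in WT (SD, n = 4), had a logFC of 0.27 and an FDR of 0.406.

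None of the 4 genes of the other accessory family passed the test in edgeR's quasi-likelihood fit, which 34.1% of all tested genes did. *atp6ap1a* had 355.1 ± 26.9 CPM in WT, 355.7 ± 56.0 in Het and 338.3 ± 11.0 in Hom (SD, n = 4 each), a logFC of -0.03 ± 0.095 (SE). *atp6ap1b*, *atp6ap1lb* and *atp6ap1la* had logFC values of 0.23, 0.23 and -0.27. The difference between *atp6ap2* and this family was not tested.

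**Figure D2:**
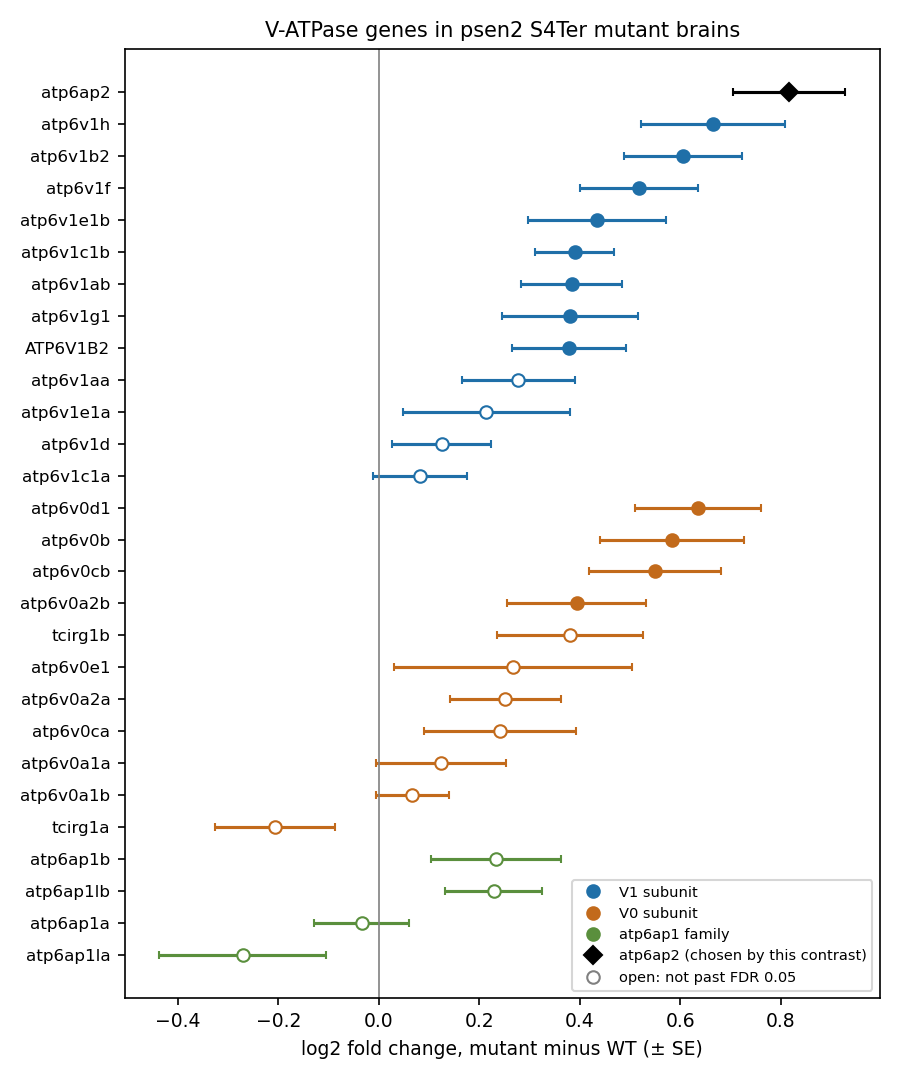
log2 fold change (mutant minus WT, with SE) of *atp6ap2* and the 27 other tested V-ATPase genes, grouped into V1 subunits, V0 subunits and the atp6ap1 family. Filled points passed an FDR of 0.05, which 12 genes did, all of them to the right of 0, and the diamond is *atp6ap2*, the gene chosen with this contrast known.

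The WT fish differed among themselves in this set. Fish 79 and 86 had lower levels than WT fish 88 and 95 in *atp6v1h*, *atp6v0d1*, *atp6v1b2* and *atp6v0b*, and their mitochondrial rRNA shares, 18.9% and 17.9%, were below the 26.4% and 23.9% of fish 88 and 95. *atp6ap2* itself stood in the same order as this share, with 49.6, 54.1, 54.5 and 66.5 CPM in WT fish 86, 79, 95 and 88. The part of this in the result was not tested. Without fish 79, 8 of the V-ATPase genes passed, and without fish 86 also 8, whereas without fish 88 it was 15. *atp6v1h*, *atp6v0d1*, *atp6v1b2*, *atp6v0b*, *atp6v0cb*, *atp6v1f*, *atp6v1c1b* and *atp6v1ab* passed in each of the 21 alternative fits, those without 1 fish included. *atp6v0a2b* failed in 11 of these fits, *atp6v1g1* in 9, and *atp6v1e1b* and ATP6V1B2 in 2 each.

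The level of *atp6ap2* relative to the rest of the pump was then compared in each fish, as its FPKM over the mean FPKM of the 27 other genes. This ratio was 0.570, 0.528, 0.618 and 0.527 in WT fish 79, 86, 88 and 95. It was 0.808, 0.857, 0.843 and 0.753 in Het fish 80, 81, 84 and 89, and 0.758, 0.732, 0.701 and 0.810 in Hom fish 78, 82, 83 and 85. Every mutant fish lay above every WT fish, and Het fish 84 was inside the range of the other mutants on this scale. Because *atp6ap2* was chosen with its mutant minus WT difference known, the separation of WT and mutant fish in this ratio is a description. The mean FPKM of the 27 genes was 46.0 ± 3.03 in WT, 61.5 ± 8.34 in Het and 54.9 ± 2.95 in Hom (SD, n = 4 each). Hom and Het did not separate in the ratio (exact two-sided permutation test, difference -0.065, p = 0.143, n = 4 each). In rank of FPKM, *atp6ap2* stood 15th of the 28 tested V-ATPase genes in WT, 14th in Het and 15th in Hom.

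**Figure D3:**
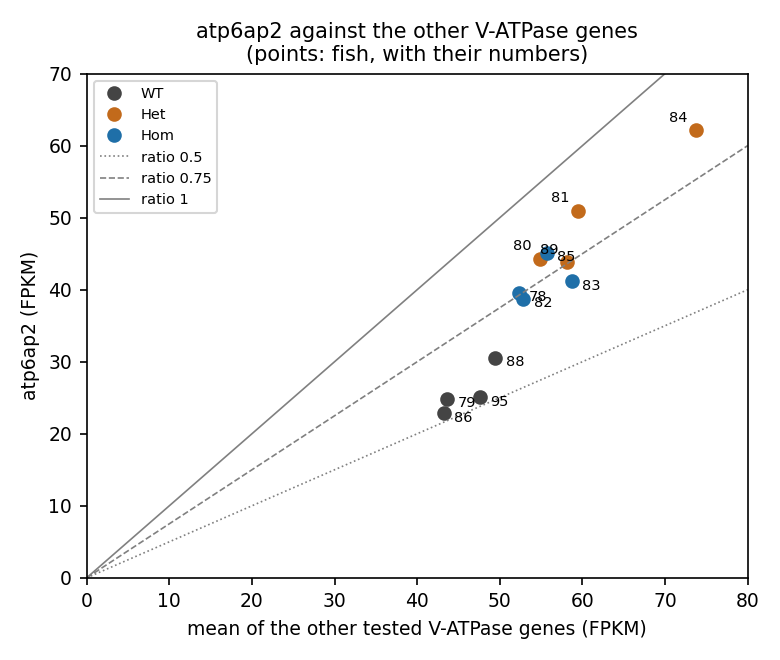
FPKM of *atp6ap2* against the mean FPKM of the 27 other tested V-ATPase genes in each of 12 brains, with grey lines of constant ratio. WT fish lie at ratios from 0.527 to 0.618 and mutant fish at ratios from 0.701 to 0.857.

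Between Hom and Het, 0 of the 27 V-ATPase genes passed an FDR of 0.05 in edgeR's quasi-likelihood test, nor did any in DESeq2 or the likelihood-ratio test. Only *atp6v1aa* had an unadjusted p under 0.05 in edgeR's quasi-likelihood test (logFC -0.29, unadjusted p = 0.0403, FDR = 0.989), and over all tested genes 1.87% did so with a lower value in Hom. The fitted value was below 0 in 23 of the 27 (50.6% of all tested genes), with a median of -0.09. Het fish 84 had the highest *atp6v1aa* level of its group, 284.7 CPM against 196.8 to 201.8 CPM in the other Het fish.

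Of 4 genes whose products help to assemble or complete the pump, 2 rose and 0 fell, beside 16.8% and 17.4% of all tested genes. *vma21*, the assembly chaperone of V0 in the endoplasmic reticulum, rose by 0.80 ± 0.18 (SE, FDR = 0.00487). It had 12.73, 13.03, 21.69 and 18.99 CPM in WT fish 79, 86, 88 and 95. In Het fish 80, 81, 84 and 89 it had 29.3, 35.5, 41.0 and 29.6 CPM, and in Hom fish 78, 82, 83 and 85 it had 18.2, 23.5, 29.0 and 28.0 CPM. Hom fish 78 lay inside the WT range. *rnasekb*, whose mammalian product is a small V0-associated protein, rose by 0.71 (FDR = 0.0135), with means of 47.1 ± 16.4 (WT), 82.9 ± 11.3 (Het) and 71.4 ± 7.64 CPM (Hom; SD, n = 4 each). The lowest Hom fish, at 62.8 CPM, lay below the highest WT fish, at 63.2 CPM. Its paralog *rnaseka*, which was not in the list, rose by 1.42 ± 0.30 (SE, FDR = 0.00408). *ccdc115* and TMEM199, a pair of assembly factors of the endoplasmic reticulum and Golgi, had logFC values of -0.12 and -0.23 and did not pass.

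In a list of 65 genes for lysosomal enzymes, membrane proteins and regulators, 57 were tested. Of these 15 rose and 5 fell in mutant brains, and 37 did not pass, with a median logFC of 0.15. The background shares stand above, 16.8% higher and 17.4% lower. *ctsd*, the aspartic protease cathepsin D, rose by 0.51 ± 0.11 (SE, FDR = 0.00351). It had 55.8, 57.2, 69.5 and 65.0 CPM in WT fish 79, 86, 88 and 95, and at least 76.0 CPM in every mutant fish. *galcb*, a galactosylceramidase that breaks down myelin lipid, rose by 0.67 ± 0.15 (SE, FDR = 0.00446), with means of 5.12 ± 0.838 (WT), 8.10 ± 1.40 (Het) and 8.25 ± 0.629 CPM (Hom; SD, n = 4 each). Its paralog *galca*, at a mean of 5.58 CPM in WT, had a logFC of 0.05 (FDR = 0.788).

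The 5 lysosomal genes that fell included genes of both LAMP membrane glycoproteins and a pair of transcription factors. *lamp2* fell by 1.30 ± 0.23 on the log2 scale (SE, FDR = 0.00175) and *lamp1a* by 1.30 ± 0.25 (SE, FDR = 0.00247). The WT fish were far apart in *lamp2*, with 318.9, 515.8, 155.6 and 221.0 CPM in fish 79, 86, 88 and 95, and the 8 mutant fish lay between 104.9 and 158.9 CPM. This order of the WT fish was the reverse of that of their mitochondrial rRNA shares, and the relation was not tested. Het fish 84 reached into the WT range. *lamp1a* had 26.99, 47.85, 14.46 and 22.01 CPM in WT fish 79, 86, 88 and 95, the same order of fish as in *lamp2*. Het fish 84, at 15.43 CPM, lay inside this WT range too. *lamp1a* lies on chromosome 1, as *psen2* does, and an effect of linked alleles was not tested. Its paralog *lamp1b* had a logFC of -0.07 (FDR = 0.64). *tfe3a* and *tfe3b*, which encode transcription factors of lysosomal genes, fell by 0.73 ± 0.12 and 0.57 ± 0.12 (SE, FDR = 0.00141 and 0.00435). In both, every mutant fish lay below every WT fish, as in 8.76% of all tested genes. Of the lysosomal genes, *lamp2* and *lamp1a* also passed the stricter criteria. The related gene *tfeb* had a logFC of -0.09 (FDR = 0.666). The remaining gene that fell, *gusb*, had a logFC of -1.09 (FDR = 0.019), and its call was lost without WT fish 79 or 86. In *gusb*, WT fish 88, at 14.55 CPM, lay below all 8 mutant fish, which had 15.41 to 24.66 CPM. Without WT fish 79 the count of lysosomal genes that rose was 9, and without WT fish 86 also 9.

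**Figure D4:**
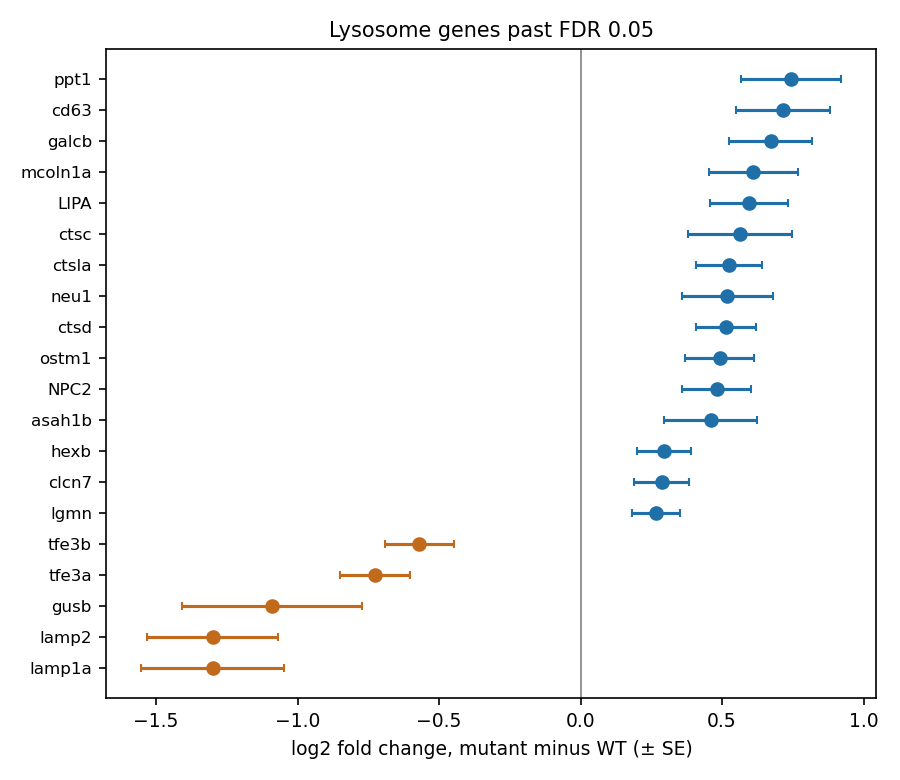
log2 fold change (mutant minus WT, with SE) of the 20 lysosomal genes of the list that passed an FDR of 0.05, ordered by value. The 15 genes above 0 lie between 0.27 and 0.75 and the 5 below 0 between -1.30 and -0.57.

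The γ-secretase genes were compared because *psen2* encodes one of its catalytic subunits. Of 4 tested, 1 rose and 0 fell, beside 16.8% and 17.4% of all tested genes. *aph1b*, a scaffold subunit, rose by 0.61 ± 0.12 (SE, FDR = 0.00292). It had 7.03, 6.44, 9.41 and 7.51 CPM in WT fish 79, 86, 88 and 95, and the 8 mutant fish lay between 10.3 and 12.8 CPM. *psenen*, the activating subunit, had a logFC of 0.42 (FDR = 0.0661) and passed when Het fish 80 was left out.

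Most of the renin–angiotensin genes, listed for the renin binding of ATP6AP2 in mammals, had too few counts to be tested. Of 7 located, 2 passed the filter, and 1 of these rose (16.8% of all tested genes). The renin gene *ren* had 0 or 1 count in every fish, and the angiotensinogen gene *agt* had 2 to 11. *agtr2*, an angiotensin receptor, rose by 0.90 ± 0.26 (SE, FDR = 0.0173), at 2.26 ± 0.658 CPM in WT, 4.91 ± 0.444 in Het and 3.59 ± 1.37 in Hom (SD, n = 4 each). It had 1.95 CPM in Hom fish 78, inside the WT range of 1.47 to 2.95 CPM, and its call was lost without WT fish 86 (FDR = 0.0665). *ace*, the angiotensin-converting enzyme, had a logFC of 0.25 (FDR = 0.305).

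Of 6 Wnt receptor and pathway genes, 1 fell and 0 rose, a count of falls near the 17.4% of all tested genes. The frizzled receptor *fzd8b* fell by 0.50 ± 0.18 on the log2 scale (SE, FDR = 0.0486), with means of 4.38 ± 0.872 (WT), 3.28 ± 0.174 (Het) and 2.94 ± 0.729 CPM (Hom; SD, n = 4 each). This call was lost in 14 of 21 alternative fits, among them those without WT fish 79, 88 or 95, without any 1 of the Het fish, and without Hom fish 82, 83 or 85. The co-receptor *lrp6* had a logFC of -0.49 (FDR = 0.0524), and Het fish 84, at 50.3 CPM, lay inside the WT range of 34.0 to 52.0 CPM. *ctnnb1*, which encodes β-catenin, had a logFC of 0.17 (FDR = 0.435) and *axin2*, a common target of the pathway, 0.01 (FDR = 0.924).

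Among the 5 nearest tested genes on each side of *atp6ap2* on chromosome 22, 2 rose, 3 fell and 5 did not pass. Over all tested genes 16.8% rose and 17.4% fell, so calls in both directions are common among any genes. The closest, *bcor*, encodes a transcriptional corepressor and lies on the opposite strand, with its start site 6.9 kb from that of *atp6ap2*. *bcor* fell by 0.76 ± 0.12 on the log2 scale (SE, FDR = 0.00108). It had 179.9, 208.6, 148.1 and 157.1 CPM in WT fish 79, 86, 88 and 95, and between 87.6 and 129.4 CPM in the 8 mutant fish, without overlap. The closest tested gene on the other side, *use1*, 58.2 kb away, had a logFC of 0.17 (FDR = 0.341). Farther out, *mid1ip1b* rose by 0.71 ± 0.09 (SE, FDR = 0.000537), with means of 33.9 (WT), 59.9 (Het) and 51.8 CPM (Hom), and *enc3* rose by 0.66 (FDR = 0.0265). *arhgef18b* and the insulin receptor gene *insrb* fell by 0.50 and 0.26 (FDR = 0.00315 and 0.019). The calls of *enc3* and *insrb* were lost without WT fish 79 (*enc3* also without WT fish 86 or 95). *timm13*, *si:dkey-277i15.2*, *tspan7* and *slc26a11* did not pass. Another 5 genes closer to *atp6ap2* than its nearest tested neighbours had at most 14 counts in any fish.

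**Figure D5:**
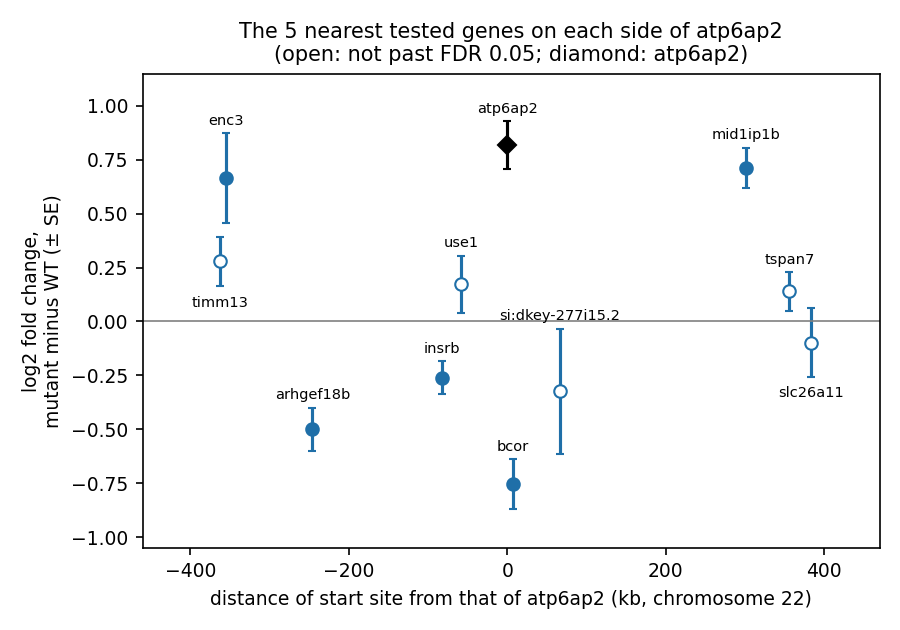
log2 fold change (mutant minus WT, with SE) of *atp6ap2* and the 5 nearest tested genes on each side of it against the distance between start sites in kb. Filled circles passed an FDR of 0.05, and *bcor*, 6.9 kb away, lies at -0.76 whereas *atp6ap2* lies at 0.82.

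Among the 10 genes whose log2 CPM followed *atp6ap2* most closely over the 12 fish were *fkbp1aa* (r = 0.987), *tmem258* (r = 0.987), *rpl39* (r = 0.985), *rnf175* (r = 0.985), *rpl34* (r = 0.983), *fhit* (r = 0.982), *rps16* (r = 0.981), *hist2h2l* (r = 0.980) and *rps18* (r = 0.980). The 10 are the highest among all tested genes, so high values were bound to be found. The 12 fish fall into a WT and a mutant cluster and share their libraries, and the values are descriptions. Of those named, *rpl39*, *rpl34*, *rps16* and *rps18* encode ribosomal proteins. The paper questions its own ribosomal result, because rRNA was left in variable amounts and differential expression correlated with it. The part of leftover rRNA in these values of r was not tested. *fkbp1aa*, an FK506-binding protein, had 93.2, 84.5, 144.3 and 99.2 CPM in WT fish 79, 86, 88 and 95, and 163.0 to 346.6 CPM in mutant fish, with Het fish 84 highest, as in *atp6ap2*. Without Het fish 84 the 10 values of r lay between 0.973 and 0.989. The most opposite patterns were those of *paxbp1* (r = -0.984), *mdm1* (r = -0.981), *si:ch73-109d9.3* (r = -0.980), *qser1* (r = -0.980) and *atxn1b* (r = -0.978).

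Likeness within the genotypes does not use the difference between them, so it was computed from each fish's deviation from its genotype mean. The most alike were *lysmd2* (r = 0.985), *si:dkey-108k21.15* (r = 0.982), *pigbos1* (r = 0.977), *hist2h2l* (r = 0.965) and *rpl31* (r = 0.961), and only *hist2h2l* stood in both lists. *lysmd2* had 59.4, 52.6, 74.2 and 62.3 CPM in WT fish 79, 86, 88 and 95, with fish 86 lowest and fish 88 highest, as in *atp6ap2*. Its mutant minus WT logFC was 0.21 (FDR = 0.22). The most opposite were *paxbp1* (r = -0.973), *rbm14a* (r = -0.970) and *phrf1* (r = -0.968). Without Het fish 84 the values were 0.975 for *lysmd2*, 0.924 for *rpl31* and -0.950 for *paxbp1*. For the 27 other V-ATPase genes the median r was 0.698 over the 12 fish and 0.481 within genotype, falling to 0.363 without Het fish 84. The median r over all tested genes was 0.01 over the 12 fish and -0.02 within genotype. Closest within genotype were *atp6v1aa* (r = 0.857), *atp6v1g1* (r = 0.851) and ATP6V1B2 (r = 0.813), whereas *atp6v0a1a* ran opposite (r = -0.818). Without Het fish 84 these values were 0.707, 0.694, 0.666 and -0.628. The closest was then *atp6v0a2b* (r = 0.799), which had r = 0.382 with that fish.

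Markers of the main brain cell types were detected in every library, and their counts below stand beside 16.8% higher and 17.4% lower among all tested genes. Of 6 neuronal markers, *snap25b* and *elavl4* fell and 0 rose, with the summed level at 5465 to 6284 CPM in WT and 5366 to 5749 CPM over Het and Hom. Of 5 radial glia markers, *fabp7a*, *glula* and *glulb* rose and 0 fell, and their summed level had a range of 2517 to 3322 CPM over WT fish, 3281 to 4350 over Het fish and 3104 to 3547 over Hom fish. Among 4 oligodendrocyte markers *plp1a* and *plp1b* moved in opposite directions. Among 4 microglia markers *mpeg1.1* fell and 0 rose. The summed level of the microglia markers did not fall with it. It was 269.1 to 417.5 CPM over WT fish, 373.1 to 516.1 over Het fish and 372.5 to 451.4 over Hom fish. None of the tested blood, retina, muscle, pituitary, skin or pigment markers passed the test in edgeR's quasi-likelihood fit, although skin and pigment markers summed to 680.5 CPM in the highest Hom fish, against 11.7 to 103.0 CPM in WT and Het fish. The part of cell composition in the level of *atp6ap2* was not tested.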

How the data were processed

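Whole-brain RNA of 12 zebrafish was measured by RNA-seq. Per the study's methods and the file header, the authors trimmed reads with cutadapt 1.14, aligned them to GRCz11 with STAR 2.7.0d and counted unique, strictly exonic fragments per Ensembl gene with featureCounts (Subread 1.5.2). The deposited values are raw counts per gene, with exon models and lengths. Symbols came from tables that pair Ensembl identifiers with names, which named 29060 of 32057 genes.

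Genes with CPM above 1.5 in at least 4 fish were kept and the 2 mitochondrial rRNA genes left out, leaving 16021. One model of 3 genotypes was fitted with TMM scaling and the quasi-likelihood test (edgeR 4.0.16, R 4.3.3), with Benjamini-Hochberg adjustment over all tested genes. The authors corrected for GC content and length, whereas the main fit here did not. A length correction (quantreg 6.1), DESeq2 1.42.0, other scalings and filters, and the omission of each fish were tried as alternatives. log2 CPM used a prior count of 2. At the depths here 3 counts correspond to at most 0.331 CPM (Het fish 84), and the Wilson intervals cover counting error only.

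*atp6ap2* and the gene lists were chosen with earlier results of these data known. Genes named are *atp6ap2*, *psen2*, all V-ATPase genes, the 5 nearest tested genes on each side, the genes most and least like *atp6ap2*, and up to 6 genes per other list by smallest FDR. Cell type markers, *rnaseka* and list members given for context were named after their values were seen. Sequences were not used here. Some genes that fall under these rules are not reported here.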

Additional observations from a re-analysis of the deposited data

Results flagged for a closer look

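The V-ATPase genes and their mean, measures of *atp6ap2* and *psen2*, library totals, rRNA shares and TMM factors were examined in each genotype. In 4 of these 117 groups of 4 fish, 1 fish lay far from the other 3, by a rule that chance meets in about 1 of 20 groups. None of the 4 was a group of *atp6ap2* itself. Het fish 84 was far above its group in 3 V-ATPase genes. In *atp6v1aa* it had 284.7 CPM against 196.8, 197.4 and 201.8 CPM. In *atp6v0ca* it had 296.3 CPM against 203.0, 206.9 and 210.8 CPM. In *atp6v1c1a* it had 169.1 CPM against 137.5, 138.1 and 140.9 CPM. The TMM factor of this fish, 0.841, was the lowest of the 12, and its part in these values was not tested. Hom fish 83 had 245.2 CPM of *atp6v1b2* against 204.3, 206.1 and 208.8 CPM in the other Hom fish.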

How the results depend on the processing

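No paired analysis was possible because each fish number belongs to 1 genotype only. The mutant minus WT logFC of *atp6ap2* lay between 0.74 (length correction) and 0.91 (without WT fish 88) over all alternative fits. Hom minus Het lay between -0.36 and -0.18 in them, never past an FDR of 0.05. All counts as the denominator was tried for the level of *atp6ap2* only and is not part of these ranges. Lysosomal genes that rose numbered 9 to 18 over the fits without 1 fish. γ-secretase genes that rose numbered 1 to 2 in these fits, and renin–angiotensin genes 0 to 1. Wnt genes that fell numbered 0 to 1 in these fits. They numbered 2 with the likelihood-ratio test and with at least 10 counts in every fish, and 0 with upper-quartile scaling and with no filter on low counts. Of the 10 genes most like *atp6ap2* over 12 fish, 6 to 9 stayed among the 10 without 1 fish and 2 by Spearman's rho. Of the 5 within genotype, 3 to 5 and 3 did. With all counts as the denominator, the level of *atp6ap2* was 20.3 FPKM in WT, 32.2 in Het and 28.0 in Hom. The total then includes rRNA and untested genes, and no TMM factor is applied. In the main scaling these levels were 25.8, 50.3 and 41.1 FPKM. The difference between mutant and WT fish was thus smaller with all counts as the denominator, and no logFC was fitted for it. The median logFC of all tested genes turned from 0.02 to -0.00286 without a scaling factor and to -0.00723 with the length correction. The cause was not tested where none is given. A filter on CPM computed without rRNA counts and the likeness without Het fish 84 were chosen after seeing the data. GC content was not used here, and siblings of one family limit what the spread covers.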
